A study of Mus musculus with 4 samples.

Results

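MOV10 eCLIP peaks in 9 genes of the Polycomb repressive complexes were examined in N2A cells, a mouse neuroblastoma line. The genes were Suz12, Ezh1, Ezh2, Eed and Jarid2 of Polycomb repressive complex 2 (PRC2) and Rnf2, Ring1, Bmi1 and Cbx2 of Polycomb repressive complex 1 (PRC1). A peak was counted for a gene when its midpoint lay within the gene's annotated RefSeq span on GRCm38. By this rule 34 of the 12236 listed peaks (0.278%) belonged to these genes. They lay in 4 of the 9 genes (44.4%), against 8.53% of all 21900 protein-coding genes, of which 1868 had a peak.

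In eCLIP, ultraviolet light crosslinks proteins to RNA, the protein of interest is immunoprecipitated, and the RNA fragments it carries are sequenced beside a size-matched input. The study had 2 groups of libraries from frozen pellets of N2A cells grown in DMEM with serum, 2 immunoprecipitated with an anti-MOV10 antibody and 2 inputs. No genetic change or drug is named in the labels. The values came from 1 list of reproducible peaks, in which the immunoprecipitates were set against the inputs. Each peak thus carried a single log2 fold enrichment and a single −log10 p, both the authors' own, so the spread between libraries is unknown and no difference between genes was tested. The sequencing depth was not known. The log2 fold enrichment of listed peaks started at 3.001, about 8-fold on the linear scale, and their −log10 p at 3.01. A gene without a listed peak is therefore not shown to be unbound, and transcript abundance in the input was not known for any gene. Of 12 genes that mark neuronal or sympathetic neuroblastoma cells, 1 had a peak (8.33%), a share near the 8.53% of all coding genes. It was Stmn2, a microtubule-regulating neuronal protein gene, with 1 peak. A list of bound RNA does not show expression, so the identity of the line could not be checked from it.

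Polycomb proteins keep developmental genes silent by modifying histones. PRC2 methylates histone H3 at lysine 27 through EZH1 or EZH2, which work together with SUZ12 and EED. PRC1 attaches ubiquitin to histone H2A through RING1 or RNF2 (RING1B), paired with a PCGF protein such as BMI1, and in its canonical form reads the PRC2 mark through a CBX protein such as CBX2. MOV10 is an RNA helicase, mainly of the cytoplasm, that associates with Argonaute proteins on mRNA, and in human cells it has been reported to associate with PRC1 proteins as well. The peaks describe where MOV10 met RNA from the spans of the genes that encode the Polycomb proteins, and not Polycomb activity on chromatin.

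MOV10 peaks were listed for genes of both complexes. Suz12 held 13 peaks, Bmi1 9, Jarid2 7 and Cbx2 5. The enzyme genes Ezh1, Ezh2, Ring1 and Rnf2 held 0, as did Eed, the PRC2 subunit that binds the methylated histone tail. With a peak in only 8.53% of all coding genes, the lack of one in these 5 genes does not set them apart. A peak enriched by 4 or more on the log2 scale was present in 3 of the 9 genes, Suz12, Bmi1 and Cbx2, against 3.59% of all coding genes. No test was made of this share or of the one above, since the genes were chosen with results of this list known.

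All 34 peaks lay close to the 3′ ends of their genes. Their midpoints were between 105.5 and 1870 nt from the annotated 3′ end, with a median of 899 nt, against a median of 1521.75 nt for all 11938 peaks in coding genes. All 34 lay within 2 kb of the end, against 60.9% of all peaks in coding genes. Within 5 kb the share of all peaks in coding genes was 86.6%, so most of the list lay near 3′ ends as well. Bmi1 and Cbx2 are short genes, in which the 3′ end is never far away. The median distance of their 14 peaks was 969.25 nt, against 864 nt for the peaks in coding genes under 15 kb. Of the peaks in these short coding genes, 79.1% lay within 2 kb of the end. In Suz12 and Jarid2, both longer than 15 kb, 20 of 20 peaks lay within 2 kb of the end. In all coding genes of at least 15 kb, 58.1% of the peaks did so, and 85.0% lay within 5 kb. Peaks of 1 gene share a transcript, so the 34 peaks stand for 4 genes and not for 34 independent sites. Whether they lie in 3′ untranslated exons was not determined, because the gene table used gives spans and no exons.

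**Figure D1:**
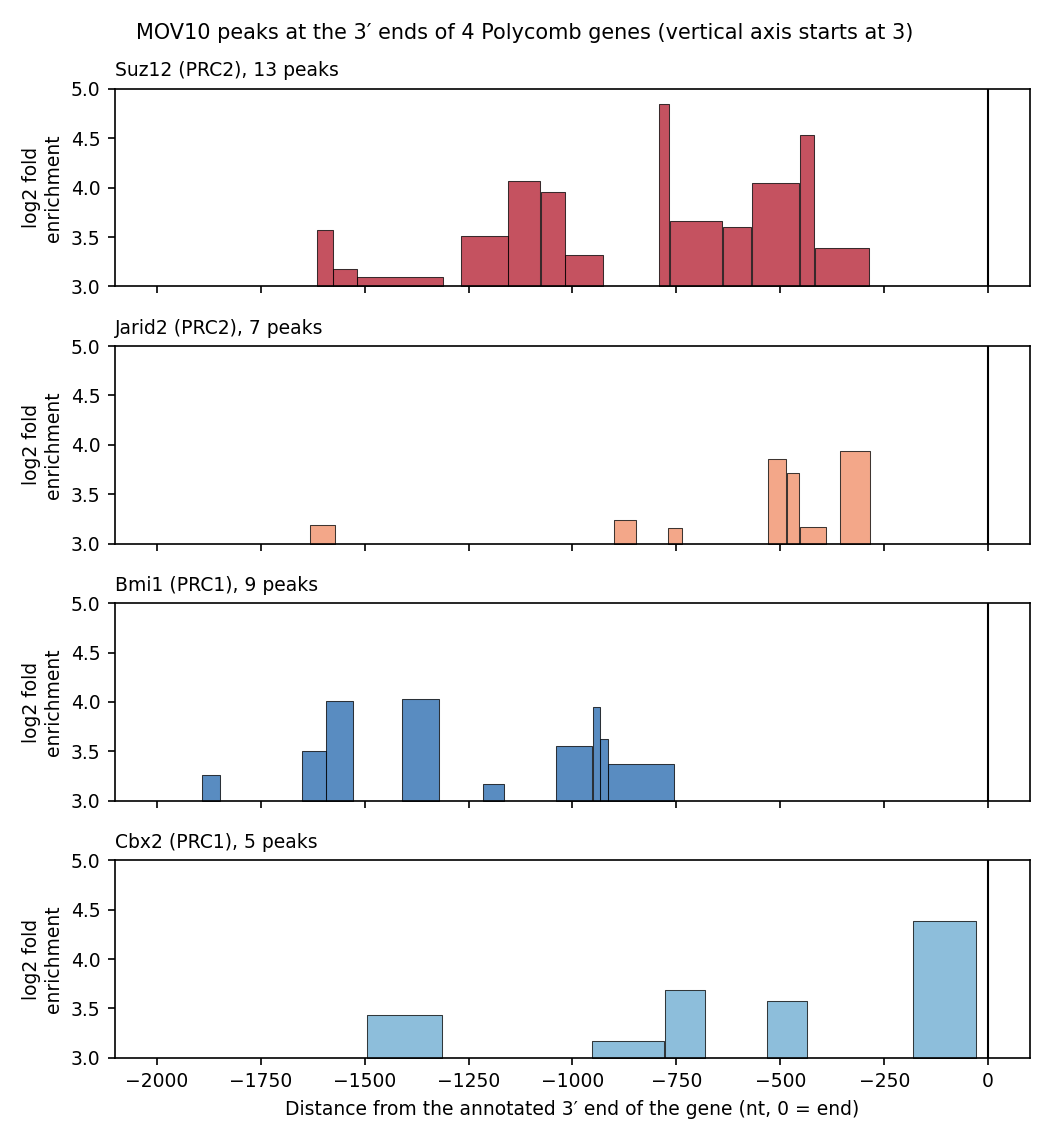
Peaks of Suz12, Jarid2, Bmi1 and Cbx2 by distance from the annotated 3′ end of the gene in nt (horizontal axis, 0 is the end) and log2 fold enrichment of MOV10 immunoprecipitate over input (vertical axis, which starts at 3, the floor of the list). Each box is 1 peak, as wide as the peak, and all 34 boxes lie within 2 kb of the end.

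Suz12, whose protein holds the PRC2 core together, had the most peaks as listed and the strongest one. The gene lies on chromosome 11 (79993106 to 80034123, plus strand, GRCm38) and spans 41.0 kb. Its 13 peaks fell between 80032508 and 80033836, a stretch of 1329 nt that is 3.24% of the gene's span, and covered 86.7% of that stretch. With touching peaks joined they formed 4 intervals, the longest of 480 nt. Listed peaks thus followed each other with few gaps from 1595.5 to 352 nt before the 3′ end, counted at peak midpoints. With touching peaks joined, Suz12 no longer had the most, since Cbx2 also had 4 and Jarid2 and Bmi1 had 5 each.

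Within this stretch of Suz12 the enrichment varied. The strongest peak, at 80033330 to 80033355, was only 26 nt long and lay 780.5 nt from the end. Its log2 fold enrichment was 4.84 (28.7-fold) and its −log10 p 12.8. The second strongest, of 36 nt at 80033670 to 80033705, reached 4.53 at 435.5 nt from the end. Peaks of 4.07 and 4.05 followed, at 1115.5 and 511.5 nt. The other 9 peaks were below 4, and the weakest, 3.10, was also the longest, with 207 nt at 80032605 to 80032811. The highest −log10 p, 28.9, belonged to the peak of 116 nt with the enrichment of 4.05. The highest enrichment of Suz12 was thus in short peaks and the highest −log10 p in a longer one. Every peak of Suz12 had a −log10 p of at least 9.74. Over its 13 peaks, which share a transcript, length and log2 fold enrichment had a Spearman correlation of −0.51, while the same correlation was −0.56 over the 5 peaks of Cbx2, 0.10 over the 9 of Bmi1 and 0.18 over the 7 of Jarid2. Over all 34 peaks it was −0.14, against −0.17 over all 11938 peaks in coding genes.

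Jarid2, an accessory PRC2 subunit that helps bring the complex to its targets, had weaker peaks. The gene lies on chromosome 13 (44730774 to 44921643, plus strand) and is the longest of the 9, with a span of 190.87 kb. Its 7 peaks all had their midpoints in the last 0.839% of that span, between 1602 and 320.5 nt before the 3′ end. The strongest was the one nearest to the end, at 44921286 to 44921359, with a log2 fold enrichment of 3.94 (15.4-fold). Next came 3.86 and 3.72, in touching peaks at 507.5 and 469.5 nt, and the other 4 were between 3.16 and 3.24, close to the floor of the list. The −log10 p of the 7 peaks ranged only from 3.12 to 6.43, below every peak of Suz12. The peaks covered 363 nt, which is 26.9% of the stretch from the first to the last.

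Bmi1, a PCGF subunit of canonical PRC1 known for the self-renewal of stem cells and neural progenitors, had peaks of moderate enrichment, one of them with the highest −log10 p of all. The gene lies on chromosome 2 (18677018 to 18686629, plus strand) and spans 9.61 kb. Its 9 peaks fell between 18684738 and 18685873, from 1870 to 835 nt before the 3′ end, and left the last 756 nt of the span free of listed peaks. The strongest reached 4.03 on the log2 scale (16.4-fold) at 18685219 to 18685309, and a nearly equal one of 4.01 lay at 18685036 to 18685102. The peak nearest to the end, 159 nt long at 18685715 to 18685873, had an enrichment of only 3.37 but a −log10 p of 39.6, the highest of all 34 peaks. In Bmi1, too, the ranking of peaks by enrichment and by −log10 p differed. Joined where they touch, its peaks formed 5 intervals, the longest of 285 nt.

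Cbx2, a chromodomain subunit that anchors canonical PRC1 to methylated histone H3, had 5 peaks. The gene lies on chromosome 11 (119023019 to 119031275) and spans 8.26 kb, and its direction was taken from its peaks, all on the plus strand. The strongest peak covered 154 nt at 119031093 to 119031246, with a log2 fold enrichment of 4.38 (20.9-fold) and a −log10 p of 13.3. Its midpoint lay 105.5 nt from the 3′ end, the nearest of all 34. Here the strongest peak by enrichment was also the one with the highest −log10 p. The other 4 lay 485 to 1404 nt from the end, with log2 fold enrichments of 3.17 to 3.69 and −log10 p of 3.93 to 9.28. The peaks of Cbx2 were long, with a shortest of 97 nt and a longest of 181 nt, against a median of 74 nt for all peaks in coding genes.

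How the enrichment of the 4 genes compared with the whole list depended on whether touching peaks were joined. The median over the 34 log2 fold enrichments was 3.57 (interquartile range 3.28 to 3.95), against 3.71 for all peaks in coding genes (3.34 to 4.19). With touching peaks merged, each at its highest value, the order turned, to a median of 3.77 over 18 merged peaks against 3.70 in all coding genes. Among unmerged peaks, those with an enrichment of at least 4 made up 20.6% (7 of 34), against 33.5% of all. The median −log10 p was 12.4, against 10.2. A value of at least 5 was held by 28 of 34, a share similar to that of all peaks in coding genes (10049 of 11938). By gene, the median −log10 p was 16.8 in Bmi1, 14.6 in Suz12, 6.28 in Cbx2 and 4.65 in Jarid2. The median enrichment was 3.60 in Suz12, 3.58 in Cbx2, 3.55 in Bmi1 and 3.24 in Jarid2. The medians of Suz12, Cbx2 and Bmi1 differed by at most 0.047, and that of Jarid2 was lower.

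**Figure D2:**
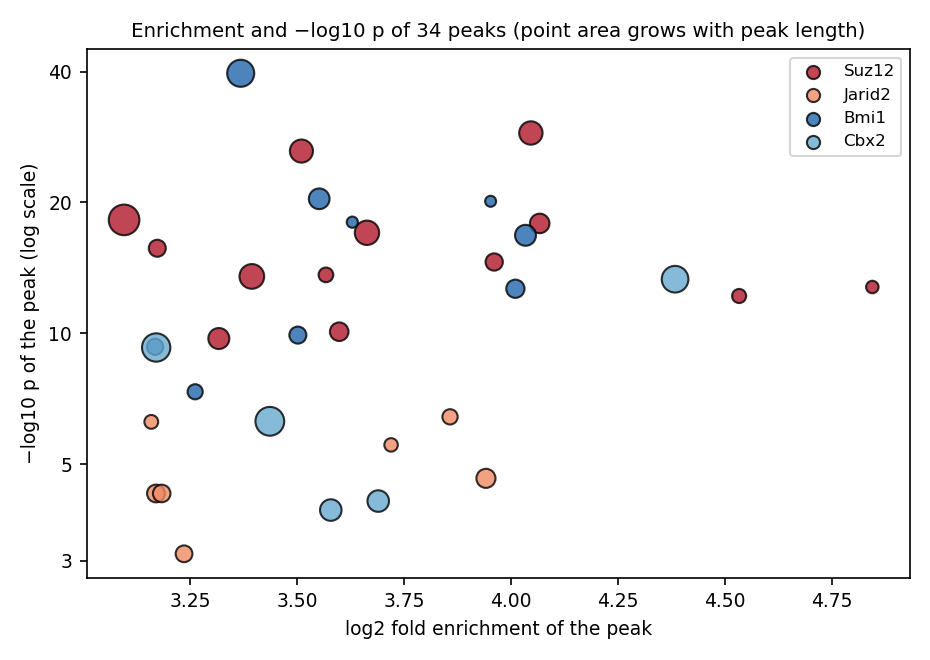
Each point is 1 of the 34 peaks in Suz12, Jarid2, Bmi1 and Cbx2, by log2 fold enrichment (horizontal) and −log10 p (vertical, log scale), with an area that grows with peak length. The peaks of Jarid2, up to 6.43, and 3 of the 5 peaks of Cbx2 lie lowest and interleave, and the strongest Suz12 peak, at 4.84, has a −log10 p of only 12.8.

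Among the 1868 coding genes with a peak, the 4 Polycomb genes ranked from the middle to the upper part. The strongest enrichment of Suz12 exceeded that of 88.1% of these genes, that of Cbx2 74.6%, Bmi1 59.9% and Jarid2 55.5%. The median of the strongest enrichment over all 1868 genes was 3.84 (interquartile range 3.42 to 4.39). In number of peaks as listed, with touching ones counted separately, Suz12 exceeded 84.6% of the genes, Bmi1 76.0%, Jarid2 69.2% and Cbx2 60.7%. The median was 3 peaks per gene over all. The order by strongest enrichment thus put Cbx2 second, and the order by number of peaks as listed put it last of the 4. The genes most like Suz12 were sought among the 36 coding genes with exactly 13 peaks, by the difference in strongest enrichment. Next above it were Epb41l1, a membrane cytoskeleton gene (4.90), and the RNA-binding protein gene Rbms2 (5.02), and close below was the phosphatase gene Bpnt2 (4.75). This likeness rests on 1 peak list.

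**Figure D3:**
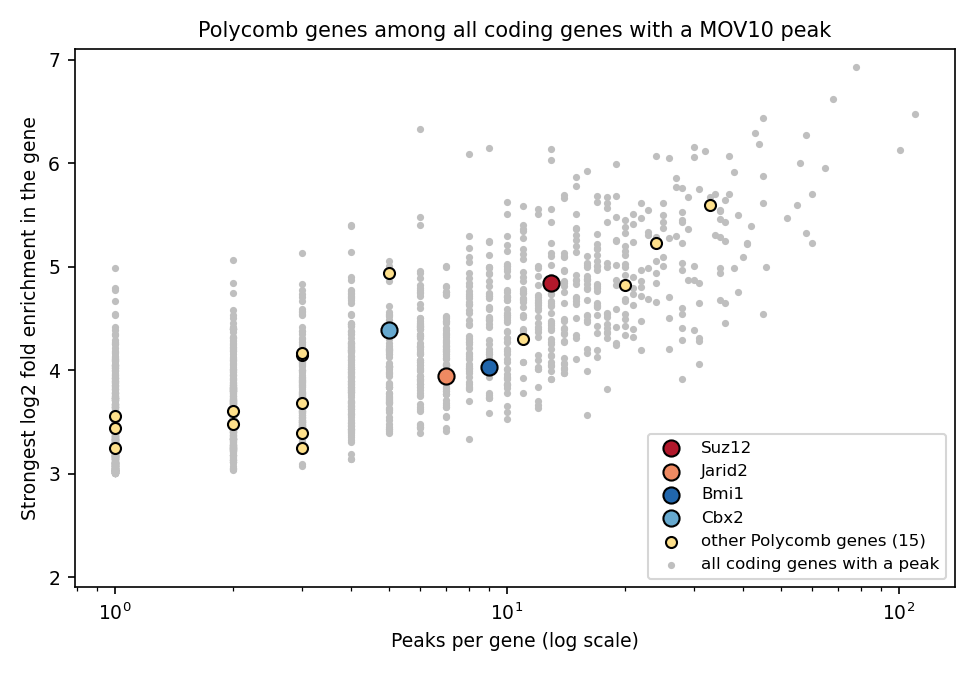
Coding genes with a MOV10 peak, by number of peaks (horizontal, log scale) and strongest log2 fold enrichment (vertical). Suz12 (13 peaks, 4.84) stands highest of the 4 coloured genes, the 15 yellow points are other Polycomb genes, and grey points are the other coding genes with a peak.

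The 5 genes without a peak had none within 20 kb of their spans either. Ezh2, the main H3K27 methyltransferase of dividing cells, spans 65.0 kb on chromosome 6 (47530274 to 47595270), and the nearest listed peak was 193 kb away, in the small RNA gene Rny1. Ezh1, its paralog, spans 35.3 kb on chromosome 11 (101191115 to 101226463), with the nearest peak 62.0 kb away. For Eed on chromosome 7 (89954654 to 89980976) the nearest was 6926 kb away. Rnf2 on chromosome 1 (151469398 to 151500991) had its nearest peak at 1274 kb, and Ring1 on chromosome 17 (34020792 to 34024680), the shortest of the 9 at 3.89 kb, at 91.7 kb. None of the 5 had a peak that overlapped its span by even 1 base. Bmi1 and Cbx2, with peaks, were shorter than all of these except Ring1. The promoter table places the 5 genes without peaks on the minus strand, while the peaks of the other 4 were on the plus strand. Over the annotation, peaks were present in 8.71% of 8730 coding genes on the plus strand and in 8.31% of 8762 on the minus strand.

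The wider Polycomb system was then surveyed with a list of 51 genes that includes the 9. Peaks were listed for 19 of the 51 genes (37.3%), 149 peaks in all, against the 8.53% of all coding genes given above. Without the 9 genes the count was 15 of 42 (35.7%). The wider list, too, was chosen with earlier results of these data known, so neither share was tested. Among the other 2 PRC2 core genes, Rbbp4 and Rbbp7, which encode histone-binding WD40 proteins, neither had a peak. Among accessory PRC2 genes other than Jarid2, Aebp2 had 3 peaks up to 3.25 and Lcor 2 up to 3.48, while Phf1, Mtf2, Phf19 and Epop had 0. The 3 peaks of Aebp2, a zinc finger subunit found in the same form of PRC2 as JARID2, lay 26092 to 26781.5 nt from the annotated 3′ end and about as far, 29236.5 nt at the nearest, from the 5′ end. In this they differed in position from every peak of the 4 genes above.

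Peaks in PRC1 genes were spread over the PCGF, CBX and Polyhomeotic families. In the PCGF family, which decides the form of PRC1, Bmi1 was joined by its closest paralog Pcgf2 (Mel18) with 5 peaks up to 4.94 and by Pcgf3 with 20 up to 4.82, while Pcgf1, Pcgf5 and Pcgf6 had 0. Among the CBX genes of PRC1, Cbx2 was joined by Cbx6 with 24 peaks up to 5.23 and by Cbx8, the neighbour of Cbx2 on chromosome 11, with 1 peak of 3.55. Cbx7 had 0. All 24 peaks of Cbx6 also lay in the span of Npcd, a coding gene that overlaps it, so they cannot be given to Cbx6 alone from the spans. All 3 Polyhomeotic genes, whose proteins make PRC1 polymerize, had peaks, Phc1 with 3 up to 4.15, Phc3 with 2 up to 3.61 and Phc2 with 1 of 3.44. Scmh1 and Scml2 had 0.

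Variant PRC1, the form without CBX proteins, was represented by 5 of 15 genes (33.3%), against 8.53% of all coding genes. Dcaf7, a WD40 adaptor gene, had 33 peaks up to 5.59, the most and the strongest of the 51 genes. All 33 also lay in the span of the non-coding gene Taco1os, which the promoter table places on the minus strand, opposite to the peaks. Rybp, which stimulates the ubiquitin ligase of PRC1, had 11 peaks up to 4.30, and its paralog Yaf2 had 1 of 3.25. Max, the dimerization partner of MYC and MGA, had 3 up to 3.68, and Auts2, a neurodevelopmental gene, 3 up to 3.39. None of the 4 genes of the Polycomb deubiquitinase, which removes the H2A mark, had a peak. Since only 8.53% of all coding genes had one, this lack does not set the 4 genes apart. Of the H3K27 demethylase genes, Kdm6b had 3 peaks up to 4.16, all within 172.5 nt of the 3′ end, and Kdm6a had 0. The peaks of 16 of the 19 genes were all in the last 5 kb, and the exceptions were Aebp2, Pcgf3 with 15 of 20 there and Phc3 with 1 of 2. Of all single peaks in coding genes, 86.6% lay in the last 5 kb. The share of all coding genes with every peak there was not computed, so the count of 16 genes has no like share beside it. Cbx8 spans only 4.61 kb, so its peak could not lie elsewhere.

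**Figure D4:**
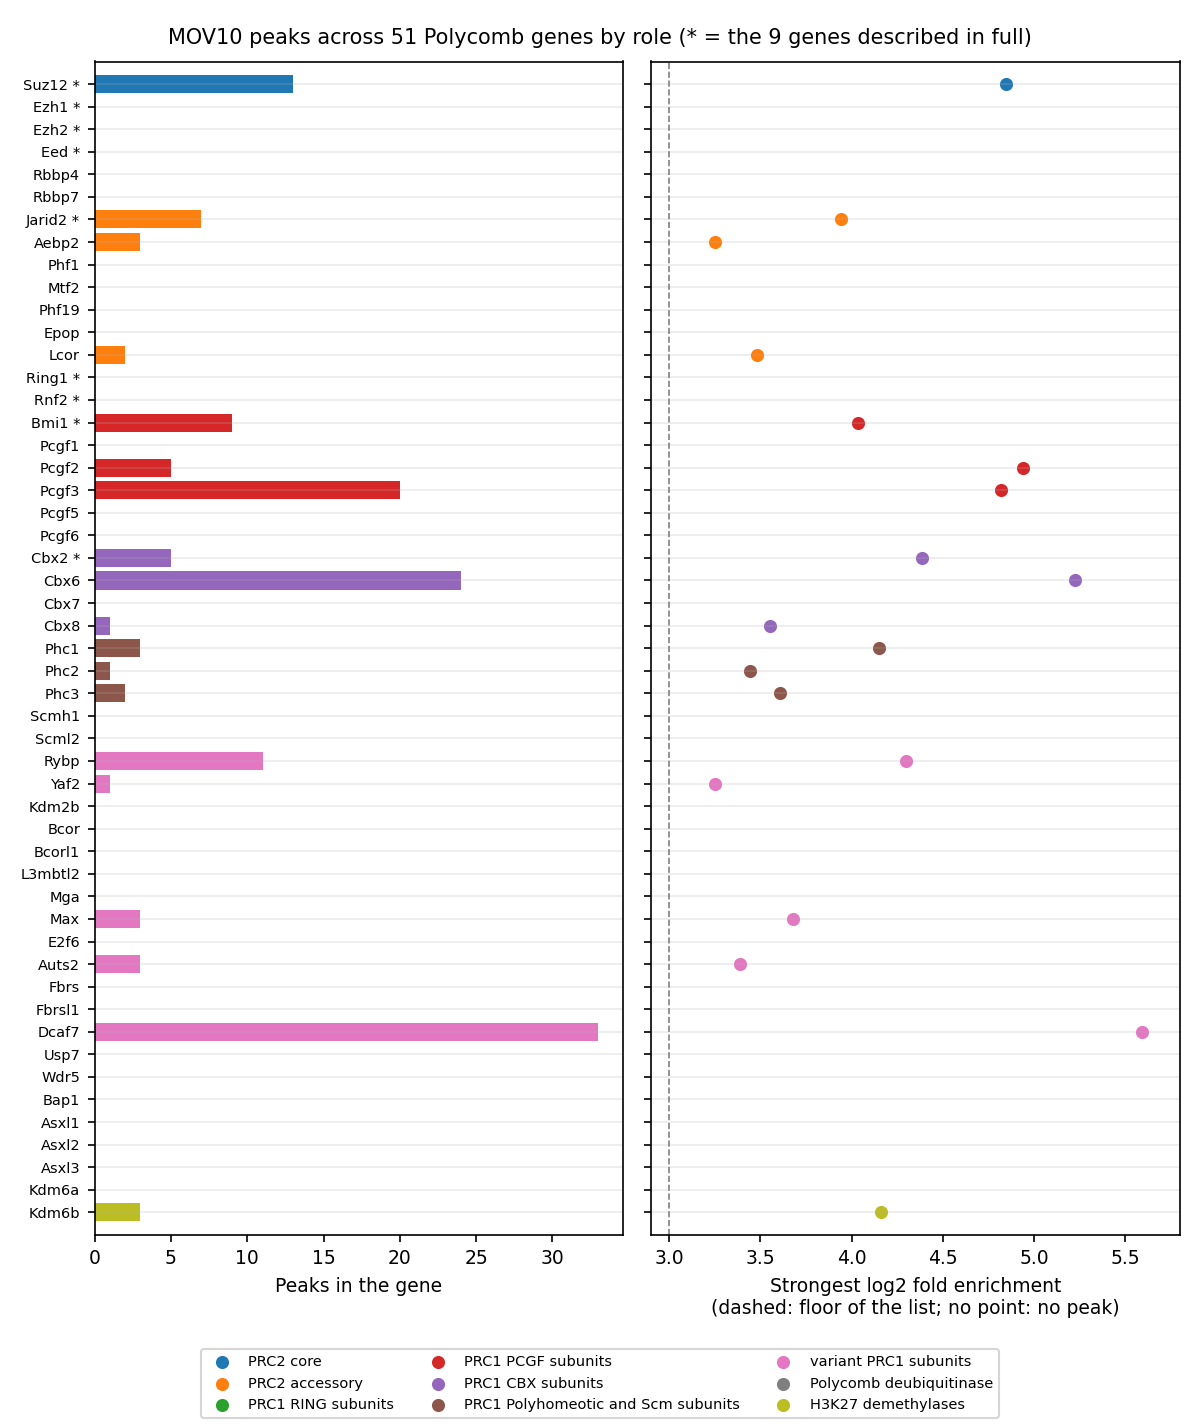
Number of peaks (left, bars) and strongest log2 fold enrichment (right, points) for 51 Polycomb genes grouped by role, in colours given under the plot, with the 9 genes of the opening marked by an asterisk. Genes without a bar have no listed peak, among them Ezh1, Ezh2, Ring1, Rnf2 and all 4 deubiquitinase genes.

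Dnmt3a, Tet3 and Cbx5, of other chromatin gene families, held more peaks as listed than Suz12, Jarid2, Bmi1 or Cbx2. So did Dcaf7 with 33, Cbx6 with 24 and Pcgf3 with 20, of the wider Polycomb list. Of 9 DNA methylation and demethylation genes, 3 had peaks (33.3%, against 8.53% of all coding genes), with 36 in Dnmt3a, 28 in Tet3 and 3 in Tet1, and their strongest enrichments were 5.24, 4.60 and 4.28. Among the 3 HP1 genes, whose proteins share the chromodomain of CBX2, Cbx5 had 110 peaks and Cbx1 and Cbx3 had 0, so that 1 of 3 genes had a peak, against the same 8.53%. The Hox genes, the classical targets of Polycomb silencing, had a peak in 0 of 39, against 8.53% of all coding genes. Most Hox genes span under 15 kb, however. Coding genes with a peak numbered 318 under 15 kb and 1550 of at least 15 kb. The share with a peak among short coding genes was not computed, so the Hox count has no share at like length beside it. Whether Hox transcripts were present in the input was not known.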

How the data were processed

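eCLIP of MOV10 in N2A cells gave 2 immunoprecipitate and 2 input libraries. Per the labels' protocols, the published eCLIP method was followed without changes, and nothing in them says whether the replicates were separate cultures. The deposited list, which has no header, gives each peak's position, strand and 2 values of the authors. The first was read as the −log10 p of the peak deposited by the authors, while the second was taken as the authors' log2 fold enrichment. These readings rest on the range of the values and on the column order of published eCLIP peak files. For the aligner, peak caller, thresholds and combination of replicates, the details were not given in the sources used here. In the submitters' processing notes, the builds named are mm10 and GRCm38.p6. No value per library, read depth or genome sequence was used here.

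Starts were converted to count from 1. Peaks were assigned by midpoint to RefSeq gene spans of GRCm38.p6, and all 9 genes and all 114 genes of the lists were found by symbol. Gene strand came from the RefSeq promoter table, which held 8 of the 9 genes. Of 8775 peaks in 1 coding gene of known strand, 99.9% were on the gene's strand, as were all 29 such peaks of the Polycomb genes. Distances run from the peak midpoint to the end of the span, with the direction taken from the peak's own strand for every gene. A peak antisense to a gene was thus measured to the other end of that gene. Peaks touching on 1 strand were also merged. Every result is a description without a test. The 9 genes and the lists were chosen with earlier results of these data known. The text names all 9 genes, every gene of the 51 of the wider list with a peak, and the 2 genes next above and below the strongest member among genes with its number of peaks, except for items that are not reported here. Assignment and merging were tested on simulated data. Python 3.11.15, pandas 2.3.3, numpy 2.4.6 and scipy 1.17.1 were used.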

Additional observations from a re-analysis of the deposited data

How the results depend on the processing

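No paired analysis was possible because the list holds 1 value per peak over all libraries. Assignment by any overlap, or by midpoints in a single gene span alone, left the 4 genes, the 34 peaks, their median enrichment of 3.57 and their position as they were. Restriction to peaks of 4 or more on the log2 enrichment scale left 7 peaks in 3 of the 9 genes, without Jarid2. Their median was 4.07, against 4.43 in all coding genes. Under this restriction 10 of the 51 Polycomb genes had a peak, against 3.59% of all coding genes. Merging touching peaks left 18 peaks, with a median of 3.77, now above the 3.70 of all merged peaks in coding genes, whereas unmerged peaks lay below. The order of these medians therefore depends on whether touching peaks are joined. So does the order of the 4 genes by number of peaks, with 5 merged peaks each in Jarid2 and Bmi1 and 4 each in Suz12 and Cbx2. A −log10 p of at least 5 gave a median of 3.58 and leaving out Suz12 one of 3.55. Single-gene midpoints left 17 of the 51 genes, without Cbx6 and Dcaf7, against 7.70% of all coding genes. A −log10 p of at least 5 left 16 of the 51, against 6.69% of all coding genes. All peaks of the 9 genes stayed within the window at 2, 5 and 10 kb, under every setting run. Wider windows and stricter filters could not change this, because no midpoint lay farther than 1870 nt from the end. The count of Hox genes was 0 under all settings that were run, and stricter filters could not raise it. Depth and counting error were not known.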
